A study of Mus musculus with 12 samples.

Results

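Messenger RNA of 10 genes was more abundant in mouse muscle that made Dux, and they are grouped here because their proteins repair torn sarcomeres and fibre membranes or respond to stretch: Xirp1, Xirp2, Flnc, Enah, Csrp3, Ankrd1, Ankrd2, Nrap, Dysf and Anxa2. They were found by symbol in a count table of 12752 genes, and 10 of 10 were present and passed the filter on low counts. The genes were selected on their higher counts in Dux-expressing muscle in these same libraries, so each of their values that involves those libraries is a description and carries no test.

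RNA was sequenced from whole tibialis anterior, a fast muscle of the shin, of male C57BL/6 mice. Muscles were injected at 8 weeks of age with adeno-associated virus, and every muscle in all 4 groups received AAV:TET. DUX_DOX muscles also received AAV:Dux and, 7 days later, doxycycline chow (600 mg/kg), which switches the Dux transgene on. EV_DOX muscles received the empty vector AAV:MCS and the same doxycycline chow. DUX muscles received AAV:Dux and stayed on normal chow. EV muscles received the empty vector and normal chow. Each group has 3 libraries, numbered 1 to 3 as in the labels. Dux and empty vectors went into opposite legs of a mouse, but the labels do not say which libraries come from 1 mouse, nor whether these muscles had 2 or 7 days on the chow. The sources used here do not give the promoter that drives AAV:TET, nor the vector dose of these libraries. Mouse Dux is a transcription factor related to human DUX4, whose misexpression in muscle is linked to facioscapulohumeral dystrophy, and the study asked how its expression changes muscle RNA.

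When a contracting fibre tears a few sarcomeres, the actin crosslinker filamin C and the Xin proteins gather at the lesion within a short time and hold the broken filaments together until they are rebuilt. A second group of proteins sits on the elastic titin filament or at the Z-disc, where neighbouring sarcomeres join, and its genes are known to be induced by stretch and overload. Tears of the fibre membrane are closed by a different, calcium-dependent machinery that includes dysferlin and annexins.

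Libraries held 11880593 to 13811999 counts over the genes in the table. Dux itself is not analysed here. Zscan4c, a known target of mouse Dux with several near-identical copies, had 283, 522 and 409 counts in DUX_DOX libraries and 0 or 1 in the other 9, and Tmem92 had 1123, 2339 and 1370 counts in DUX_DOX libraries and 0 to 4 elsewhere. These targets set the 3 DUX_DOX libraries apart and do not tell the EV_DOX, DUX and EV libraries from each other. All 12 fibre markers fixed for the tissue check were measured, with a summed 143100 to 160400 CPM in DUX_DOX, 173900 to 189300 in EV_DOX, 171200 to 191500 in DUX and 181200 to 187800 in EV. CPM are counts scaled to the same normalized total in every library. These are bulk samples, in which fewer cells of a type and less RNA per cell cannot be told apart.

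The DNA before the start sites of 4 of the genes, and a short stretch of a 5th, is shown here beside the motifs found in it. RefSeq start sites were matched for 9 of the 10 genes, in 12 windows of 250 bases before a start. Capitals mark matches, on either strand, to the muscle and stress motifs MCAT (CATTCC), E-box (CANNTG), AP-1 (TGANTCA), a short heat shock element (GAANNTTC), CRE (TGACGTCA), MEF2 and CArG (by name) and a TATA-type run (TATANA), the last added once the sequences had been read. For these 4 genes, bases that GENCODE M21 places in an exon of the gene are left out, so Ankrd2 and Anxa2 end before the window does. Coordinates are on GRCm38.p6: Csrp3 chr7:48848052-48848301 on the minus strand, Ankrd2 chr19:42035777-42035999 on the plus strand, Xirp2 chr2:67445752-67446001 on the plus strand and Anxa2 chr9:69453433-69453619 on the plus strand. Csrp3 and Ankrd2 are shown because their levels varied together, Xirp2 and Anxa2 because they share an AP-1 match, and each runs 5' to 3'.
Csrp3: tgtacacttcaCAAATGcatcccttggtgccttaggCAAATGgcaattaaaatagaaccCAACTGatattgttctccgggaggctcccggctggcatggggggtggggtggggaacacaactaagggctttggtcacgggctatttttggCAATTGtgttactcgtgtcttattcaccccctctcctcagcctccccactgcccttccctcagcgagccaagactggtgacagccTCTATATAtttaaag
Ankrd2: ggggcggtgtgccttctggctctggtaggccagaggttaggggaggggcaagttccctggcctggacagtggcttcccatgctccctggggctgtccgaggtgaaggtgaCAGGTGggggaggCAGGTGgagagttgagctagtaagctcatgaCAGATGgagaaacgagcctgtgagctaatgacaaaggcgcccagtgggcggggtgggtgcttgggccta
Xirp2: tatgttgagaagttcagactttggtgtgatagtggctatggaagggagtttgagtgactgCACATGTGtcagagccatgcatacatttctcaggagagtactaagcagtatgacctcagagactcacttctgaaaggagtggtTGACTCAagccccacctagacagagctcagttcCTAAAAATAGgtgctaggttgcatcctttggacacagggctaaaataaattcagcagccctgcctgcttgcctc
Anxa2: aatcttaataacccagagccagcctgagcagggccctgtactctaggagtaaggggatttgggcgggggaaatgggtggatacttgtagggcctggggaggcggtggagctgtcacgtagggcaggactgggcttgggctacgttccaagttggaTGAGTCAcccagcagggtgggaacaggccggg
For Ankrd1, the gene with the highest fold change of the 10, 30 bases at chr19:36119944-36119973 on the minus strand hold 3 matches in a row, MCAT, heat shock element and E-box, each sharing 1 base with the next. They lie before the RefSeq start site and inside the first exon of a longer GENCODE M21 transcript.
Ankrd1: aagtctGGAATGAAAATTCACCTGcctctg

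No motif was found before all of the genes. E-boxes stood in 6 of the 12 windows (genes Csrp3, Ankrd1, Ankrd2, Xirp2 and Nrap), against 66.2% of all 32851 RefSeq windows. Csrp3 had 4 in the stretch shown and Ankrd2 had 3, and in Xirp2 a pair of E-boxes overlaps. AP-1 matches were found in Xirp2 and Anxa2 (6.7% of all windows), and MCAT matches in Flnc and Ankrd1 (12.6%). Heat shock element matches were found in Ankrd1 and in a second Csrp3 window (6.7%). MEF2 was found in Xirp2 alone (2.9% of all windows), CRE and CArG in 0 of the 12 (1.5% each), and the TATA-type run in 4 (22.6%). A match is a description of letters and not a site of binding.

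The lesion proteins come first, with gene positions as in GENCODE M21 on GRCm38. Xirp1 (chr9:120013755-120023598) encodes Xin, an actin-binding repeat protein that marks damaged sarcomeres. It had 2282, 2446 and 2126 CPM in DUX_DOX libraries, against 117.7, 125.8 and 110.9 in EV_DOX, 123.9, 184.4 and 108.2 in DUX, and 129.5, 126.7 and 133.3 in EV. The DUX_DOX libraries stood far above the other 9, of which DUX library 2 was the highest. The fold change against EV_DOX was 19.3 (log2 4.27, SE 0.17). Its relative Xirp2 (chr2:67446002-67526614), a second Xin-repeat protein, had 6120, 6152 and 5046 CPM in DUX_DOX libraries, against 1788, 1972 and 2125 in EV_DOX, 2290, 2255 and 1992 in DUX, and 2291, 2346 and 1965 in EV. Again the DUX_DOX libraries did not overlap the others, but the fold change was only 2.94 (log2 1.56, SE 0.12). The fold change of Xirp1 was thus the larger of the pair.

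Flnc (chr6:29433256-29461883) encodes filamin C, the muscle filamin that crosslinks actin at Z-discs and the membrane. Flnc had 5792, 5733 and 4809 CPM in DUX_DOX libraries, against 858.9, 570.4 and 651.1 in EV_DOX, 665.2, 943.3 and 576.8 in DUX, and 758.9, 836.5 and 898.5 in EV. No other library came near the DUX_DOX range, and the fold change against EV_DOX was 7.85 (log2 2.97, SE 0.19). Enah (chr1:181896384-182019990) encodes Mena, which lengthens actin filaments and binds Xin. Its levels were 629.6, 664.8 and 414.6 CPM in DUX_DOX libraries, against 45.6, 43.5 and 42.3 in EV_DOX, 48.8, 51.0 and 43.0 in DUX, and 52.8, 45.7 and 42.4 in EV. DUX_DOX library 3 was the lowest of its group and still far above every other library, and the fold change was 13.0 (log2 3.70, SE 0.16).

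Among the stretch-responsive genes, Ankrd1 and Csrp3 had the highest fold changes of the 10. Ankrd1 (chr19:36111961-36120099) encodes an ankyrin-repeat protein (CARP) that binds the titin spring and is also found in nuclei. It had 646.2, 737.0 and 646.4 CPM in DUX_DOX libraries, against 20.0, 8.60 and 9.16 in EV_DOX, 9.96, 13.2 and 8.67 in DUX, and 22.6, 7.70 and 15.7 in EV. The lowest DUX_DOX library held 28.6 times the CPM of the highest other library, the widest gap of the 10 genes, and the fold change against EV_DOX was 53.5 (log2 5.74, SE 0.36). Its paralog Ankrd2 (chr19:42036000-42045110) binds the same part of titin and is typical of slow fibres. Ankrd2 had 429.4, 251.9 and 373.2 CPM in DUX_DOX libraries, against 46.1, 31.3 and 33.7 in EV_DOX, 68.4, 80.2 and 53.9 in DUX, and 28.1, 61.2 and 29.7 in EV. The DUX_DOX libraries were above all others, whose groups overlapped in part, and the fold change was 9.48 (log2 3.25, SE 0.29).

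Csrp3 (chr7:48830398-48848033) encodes muscle LIM protein, a Z-disc protein needed for normal heart muscle structure. It had 739.1, 425.9 and 669.0 CPM in DUX_DOX libraries, against 16.5, 9.91 and 11.4 in EV_DOX, 23.6, 45.9 and 15.8 in DUX, and 7.84, 23.9 and 8.82 in EV. The DUX_DOX libraries lay above all others, and the fold change against EV_DOX was 48.3 (log2 5.59, SE 0.45). Nrap (chr19:56320035-56390037) encodes a nebulin-related scaffold at sites where new myofibrils form and end. Nrap had 3769, 3874 and 3313 CPM in DUX_DOX libraries, against 1808, 1399 and 1541 in EV_DOX, 1696, 1859 and 1337 in DUX, and 1586, 1843 and 2125 in EV. Here too the DUX_DOX libraries did not overlap the rest, with a fold change of 2.31 (log2 1.21, SE 0.15).

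The membrane repair genes had modest fold changes. Anxa2 (chr9:69453620-69491795) encodes annexin A2, which binds membrane lipids in the presence of calcium and gathers at membrane tears. It had 113.3, 101.9 and 125.0 CPM in DUX_DOX libraries, against 40.3, 40.7 and 27.2 in EV_DOX, 33.0, 36.9 and 38.0 in DUX, and 40.8, 31.0 and 49.6 in EV. The DUX_DOX libraries were clear of the other 9, and the fold change was 3.14 (log2 1.65, SE 0.17). Dysf (chr6:84008590-84211060) encodes dysferlin, the membrane fusion protein whose loss causes a limb-girdle dystrophy. Its levels were 131.4, 137.2 and 113.4 CPM in DUX_DOX libraries, against 109.2, 92.6 and 86.5 in EV_DOX, 85.7, 93.8 and 84.9 in DUX, and 107.6, 95.7 and 104.1 in EV. DUX_DOX library 3 lay barely above EV_DOX library 1, and the fold change was 1.33 (log2 0.41, SE 0.10).

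**Figure D1:**
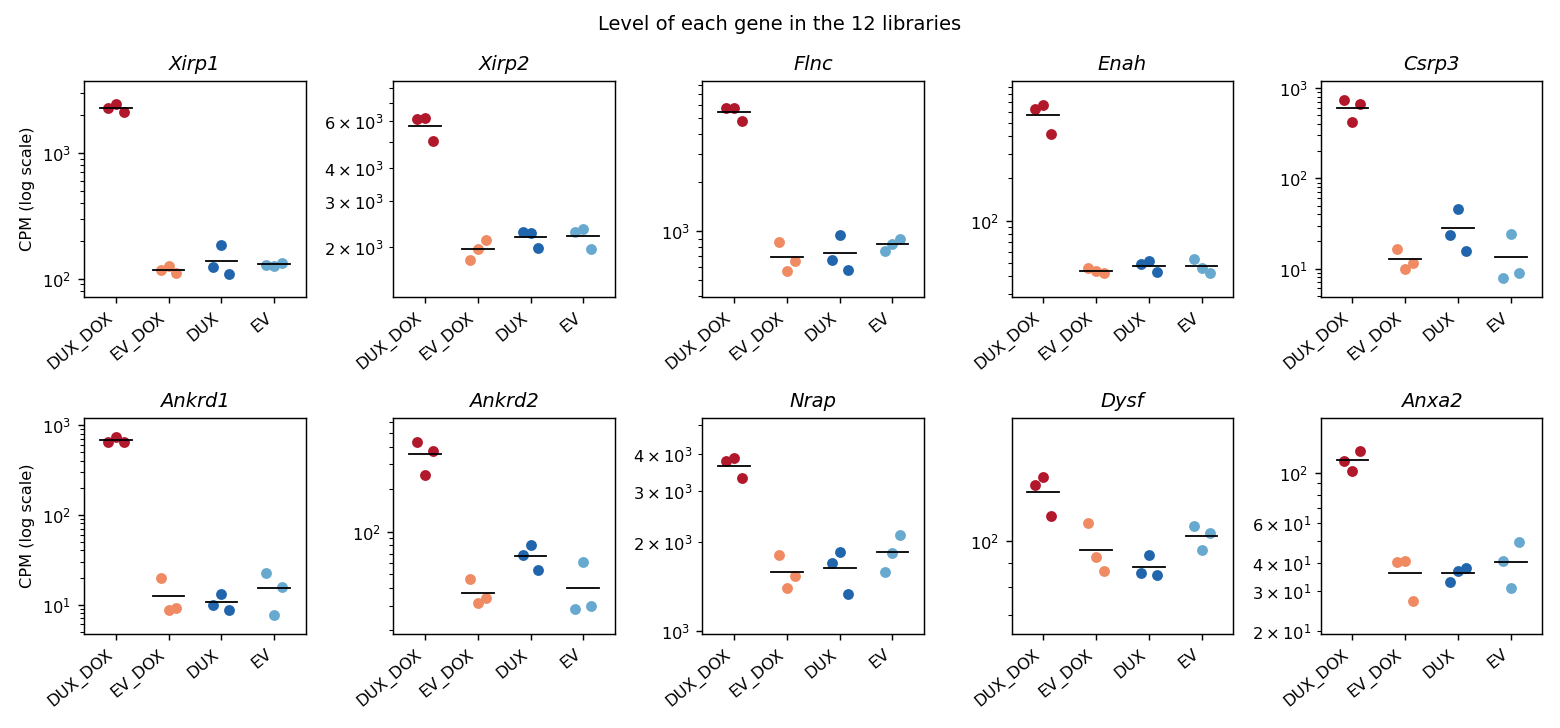
Level of each gene in CPM (log axis, its own range per panel) in the 12 libraries. Points are libraries, bars are means of 3, and groups run DUX_DOX, EV_DOX, DUX, EV. For all 10 genes the 3 DUX_DOX points lie above the other 9, with the narrowest margin for Dysf (113.4 against 109.2 CPM).

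For all 10 genes the 3 DUX_DOX libraries were above the other 9, as they were for 15.7% of the 12751 genes tested. The genes were chosen for being high there, so nothing is read from that count or from the next ones. With edgeR's quasi-likelihood test at an adjusted p threshold of 0.05, 10 of 10 were called higher for DUX_DOX against EV_DOX, where 25.3% of all genes were called, 14.9% higher and 10.3% lower. Likewise 10 of 10 were called higher for DUX_DOX against DUX, where 16.5% of all genes were, and 10 of 10 had a larger vector effect on doxycycline chow, by the interaction of vector and chow, where 6.97% of all genes did. The median log2 fold change of the 10 was 3.11 against EV_DOX and 2.64 against DUX, beside medians over all genes of -0.01 and 0.01. Both comparisons share the DUX_DOX libraries.

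Folds against DUX muscle, which carries the same vector without doxycycline, differed most from those against EV_DOX for Csrp3 and Ankrd2. Ankrd1 was 63.7-fold higher than in DUX (log2 5.99, SE 0.36), Csrp3 21.5-fold (log2 4.43, SE 0.42) and Ankrd2 5.21-fold (log2 2.38, SE 0.28). For the other 7 genes the log2 fold changes were 4.04 for Xirp1, 3.58 for Enah, 2.90 for Flnc, 1.66 for Anxa2, 1.41 for Xirp2, 1.16 for Nrap and 0.53 for Dysf. Ranked by log2 fold change against EV_DOX among the 12751 genes, Ankrd1 stood at place 36, Csrp3 at 38 and Xirp1 at 56, whereas Dysf stood at 2200.

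**Figure D2:**
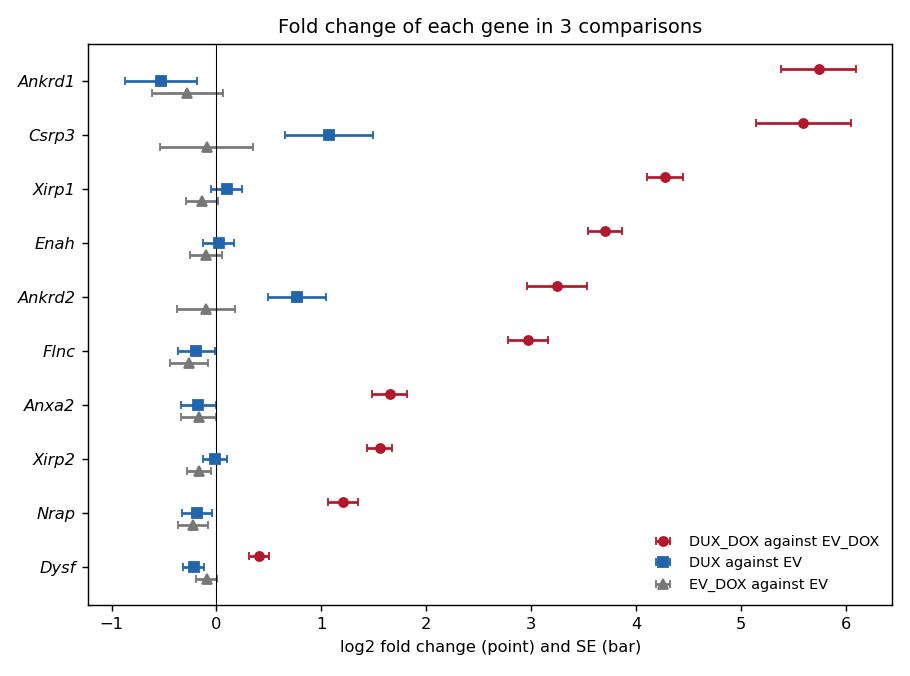
Log2 fold change (point) and its SE (bar) of each gene for DUX_DOX against EV_DOX, DUX against EV, and EV_DOX against EV. The first runs between 0.41 for Dysf and 5.74 for Ankrd1, while the other points lie between -0.53 and 1.07.

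Together the 10 genes took 2.11% ± 0.193 of all counts in DUX_DOX libraries, against 0.460% ± 0.0416 in EV_DOX, 0.471% ± 0.0509 in DUX and 0.514% ± 0.00988 in EV (SD, n = 3 each). Per kilobase of exon, in reads per kilobase at the same scale (RPKM), Nrap was the most abundant in DUX_DOX muscle at a mean of 663, followed by Flnc at 579 and Xirp2 at 482, and the library ranges of neighbours in that order overlapped. Next came Xirp1 at 391, Ankrd2 at 309, Ankrd1 at 234 and Csrp3 at 229, again with overlapping neighbours. The highest Xirp1 library (418.9) lay just below the lowest Xirp2 library (421.2). A wide gap separated these from Anxa2 at 30.4 and Enah at 26.6, which overlapped, and Dysf was lowest at 15.3. In EV_DOX muscle the order by RPKM was Nrap 287, Xirp2 164, Flnc 73.8, Ankrd2 32.5, Xirp1 20.2, Dysf 11.5, Anxa2 9.66, Csrp3 4.72, Ankrd1 4.36 and Enah 2.04. There only Dysf and Anxa2, and Csrp3 and Ankrd1, overlapped their neighbour. Xirp1 stood close below Xirp2 per kilobase in DUX_DOX muscle and far below it in EV_DOX muscle. Flnc stood above Xirp2 per kilobase in DUX_DOX and below it in EV_DOX, and Ankrd1 and Csrp3 stood below Dysf in EV_DOX and above it in DUX_DOX. With the longest transcript as the length, Ankrd1 in DUX_DOX came to 334.9 RPKM, above Ankrd2, and Enah to 50.7, above Anxa2 at 49.7.

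**Figure D3:**
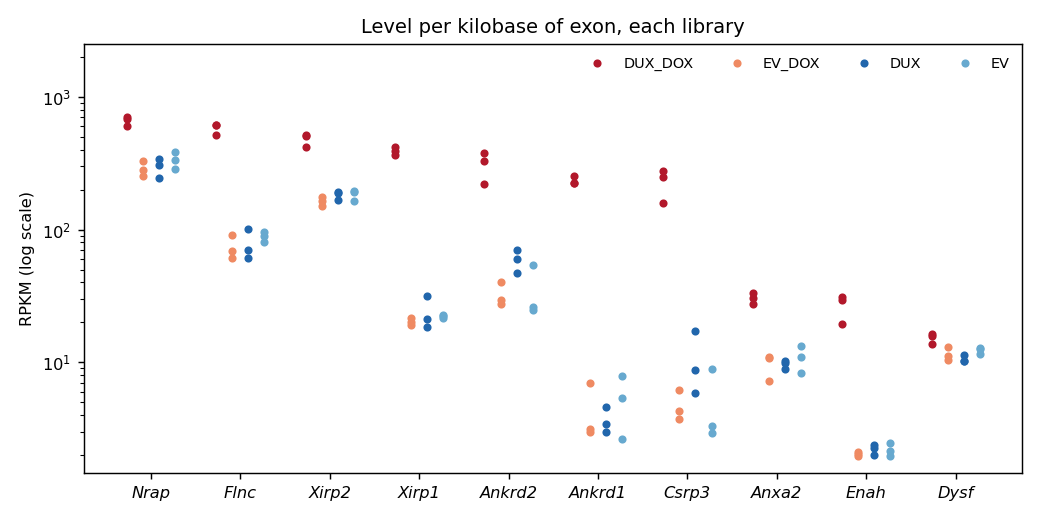
Level of each gene in RPKM over its union of exons (log axis), 1 point per library, with DUX_DOX left of EV_DOX, DUX and EV within each gene. Genes run by their mean in DUX_DOX, with Nrap at 663 RPKM at the left and Dysf at 15.3 at the right.

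Some of these counts could hold reads of other genes, or lack reads from shared bases, since the sources used here name no strand setting. Exons of Xirp2, Nrap, Dysf and Anxa2 overlap genes on the other strand, by 168 bases (Gm13601) in Xirp2, 268 (Habp2) and 108 (Gm17197) in Nrap, 105 (Gm33024) and 352 (Gm15475) in Dysf, and 98 (Gm16144) in Anxa2. None of these neighbours has a row among the genes analysed, and the other 6 genes have no such overlap.

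Within DUX_DOX the genes did not share 1 order of libraries. Xirp1, Xirp2, Enah, Ankrd1, Nrap and Dysf were highest in library 2, and all of these except Ankrd1 were lowest in library 3, as was Flnc. Csrp3, Ankrd2 and Anxa2 were instead lowest in library 2. Tmem92 had its highest count in library 2. With 3 libraries no correlation was computed.

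Muscle with the Dux vector but no doxycycline was compared with EV muscle in a test that was not itself used to choose the genes. The DUX libraries are, however, the reference of DUX_DOX against DUX, whose results were known when the genes were chosen. A choice on that comparison would favour genes low in DUX. None of the 10 genes was called with edgeR (0 of 10), nor was any of the 12751 genes tested (0%). At an unadjusted p under 0.05, 3 of the 10 and 2012 of all genes passed, DESeq2 called 153 genes and none of the 10, and limma-voom called 0. The 3 were Csrp3, Ankrd2 and Dysf. Csrp3 had a fold of 2.11 in DUX against EV (log2 1.07, SE 0.42, adjusted p = 0.257), and Ankrd2 a fold of 1.70 (log2 0.77, SE 0.27, adjusted p = 0.235). In both genes the DUX and EV ranges overlapped through EV library 2. Without that library the Ankrd2 log2 fold change was 1.22 with an adjusted p of 0.0374 in edgeR, the 1 call among the 10 over the settings tried, and 118 of all genes were then called. For Csrp3 the log2 fold change was 1.77 without EV library 2 (adjusted p = 0.0565) and 0.54 without DUX library 2 (adjusted p = 0.617), and its adjusted p lay between 0.0565 and 0.617 over the settings. For Dysf the log2 value was -0.22 (SE 0.10, adjusted p = 0.308). Ankrd1 had -0.53 (SE 0.34, adjusted p = 0.455), and the other 6 lay between -0.19 and 0.10 (adjusted p from 0.542 to 0.964).

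Doxycycline chow without Dux was tested in the same way, EV_DOX against EV. The EV_DOX libraries are also the reference of the fold change on which the genes were chosen. That choice favours genes low in EV_DOX, so nothing is read from the shared sign of the values below. Again 0 of the 10 genes were called with edgeR, and 0 had an unadjusted p under 0.05, DESeq2 and limma-voom also calling 0 of them. All 10 log2 fold changes were below 0, between -0.09 for Csrp3 and Dysf and -0.28 for Ankrd1, with adjusted p from 0.719 to 0.974, although limma-voom gave 0.07 for Csrp3 and leaving out a library took Csrp3 to 0.60 and Ankrd2 to 0.36 (without EV library 2), Ankrd1 to 0.11 (without EV library 1) and Anxa2 to 0.00 (without EV library 3). Of all genes 5 were called, or 0.0392%, and 999 had an unadjusted p under 0.05. Separate animals within a group are not stated in the labels, so these p-values cover the spread from library to library.

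Over the 9 libraries without induced Dux, the stretch-responsive genes varied most. The coefficient of variation of CPM was 65.8% for Csrp3, 42.5% for Ankrd1 and 39.5% for Ankrd2, against 8.44% to 18.7% for the other 7 and a median of 9.73% over the 7468 genes with a mean of 10 CPM or more. DUX library 2 was the highest of the 9 for Xirp1, Flnc, Csrp3 and Ankrd2.

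Csrp3 and Ankrd2 varied together over these 9 libraries. Pearson's r of log2 CPM was 0.966 (exact permutation p = 2.2e-05, adjusted 0.00099 over 45 pairs of genes) and Spearman's rho 0.967 (permutation p = 0.000165, adjusted 0.00742). The r was 0.974 without the 2 libraries farthest from the median of Csrp3, and 0.949 within groups. Flnc and Nrap gave r = 0.907 (exact permutation p = 0.000973, adjusted 0.0219) and rho = 0.933 (permutation p = 0.00075, adjusted 0.0169), with r = 0.789 without the 2 farthest libraries and 0.881 within groups. The other 43 pairs did not reach an adjusted p of 0.05. The summed level of 7 slow fibre genes, chosen once their values had been seen, was 108.2, 259.6 and 105.3 CPM in DUX_DOX libraries, 121.4, 383.5 and 105.0 in EV_DOX, 92.1, 89.9 and 103.6 in DUX and 99.8, 96.8 and 90.1 in EV. Its part in the shared variation was not tested.

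**Figure D4:**
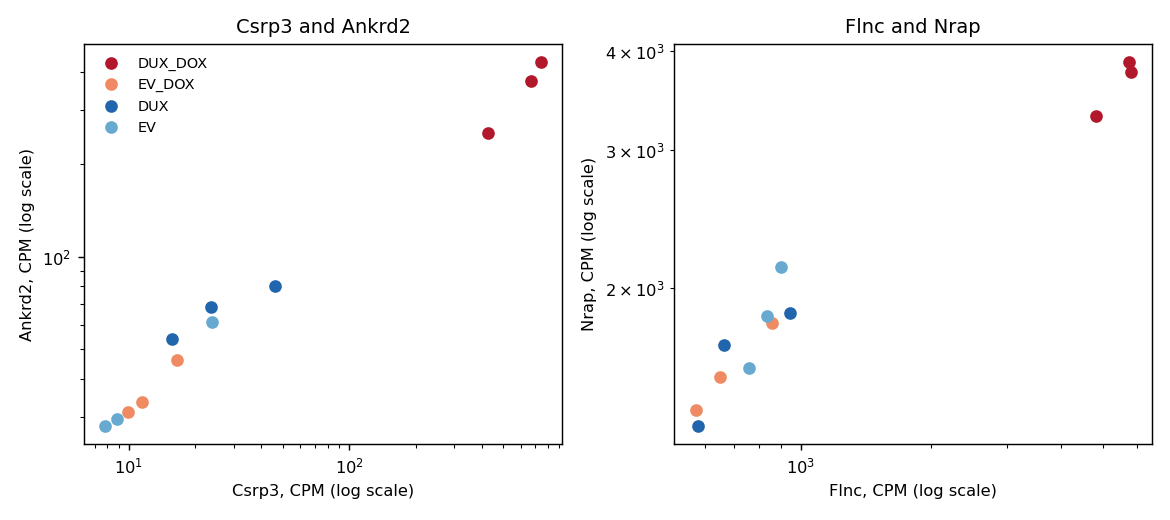
Ankrd2 against Csrp3 (left) and Nrap against Flnc (right), in CPM on log axes, 1 point per library, coloured by group. The r values of 0.966 and 0.907 are over the 9 libraries without DUX_DOX, whose 3 points stand apart at the upper right.

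Related genes were read from 6 lists, chosen with earlier results of these data known. Each gene counted once, the lists held 148 genes other than the 10, of which 48 were higher in DUX_DOX than in EV_DOX, 19 lower and 81 not called, with edgeR's quasi-likelihood test adjusted over all genes. Over all genes tested 14.9% were higher and 10.3% lower, and the counts of each list and marker set below stand beside those shares, which several of them are near. None of the 148 was called for DUX against EV, where 0% of all genes were, or for EV_DOX against EV, where 0.0392% were.

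The list of genes that refold and clear damaged filamin had the highest median and held the largest fold changes. Of 19 genes measured, 10 were higher in DUX_DOX than in EV_DOX and 0 lower, with a median log2 fold change of 1.19. The 9 not called were Sqstm1, Vps16, Synpo2, Dnajb6, Vps18, Stx7, Bag1, Stub1 and Dnajb5, with log2 fold changes from -0.13 to 0.25. Hspb1, a small heat shock protein, had 1239, 1141 and 1055 CPM in DUX_DOX libraries, against 59.2, 53.1 and 54.4 in EV_DOX (log2 fold change 4.36, adjusted p = 1.76e-11). Cryab, the small heat shock protein of the Z-disc and desmin network, had 4693, 4191 and 4582 CPM in DUX_DOX libraries, against 325.2, 353.2 and 437.3 in EV_DOX (3.59, adjusted p = 4.51e-09). Both genes stood far above their EV_DOX range in every DUX_DOX library. The inducible Hsp70 gene Hspa1a had 269.3, 240.6 and 115.8 CPM in DUX_DOX libraries, against 1.10, 1.70 and 1.25 in EV_DOX (7.27, adjusted p = 2.62e-09), and its nearly identical copy Hspa1b makes the split between them uncertain. Bag3, the co-chaperone that directs filamin to autophagy, rose by 1.42 on the log2 scale, and its partner Hspb8 by 1.61.

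Closer relatives of the 10 genes moved less. Of 17 family relatives measured, 5 were higher in DUX_DOX than in EV_DOX and 2 lower, with a median log2 fold change of 0.23. The annexins Anxa5 (log2 0.87, adjusted p = 0.00088), Anxa1 (0.98, adjusted p = 0.00101) and Anxa4 (0.57, adjusted p = 0.00238) were higher. Ankrd23, the third ankyrin-repeat protein on the titin spring beside Ankrd1 and Ankrd2, was lower (-0.43, adjusted p = 0.00377), and so was Neb, the giant relative of Nrap. The filamin Flna, the Csrp3 relatives Csrp1 and Csrp2, the Enah relatives Vasp and Evl and the dysferlin relative Myof were not called. The count of 7 relatives called was 4 without DUX_DOX library 3 and 11 without EV_DOX library 1.

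Of 27 membrane repair genes measured, 10 were higher in DUX_DOX than in EV_DOX and 1 lower (median 0.21). Ehd1, a membrane-remodelling ATPase, had 85.8, 100.9 and 108.4 CPM in DUX_DOX libraries, against 36.6, 39.4 and 34.1 in EV_DOX (log2 1.42, adjusted p = 2.31e-07). S100a10, the binding partner of annexin A2 (1.20, adjusted p = 8.29e-06), and S100a11, which binds annexin A1 (1.20, adjusted p = 0.000156), were also higher. Of 36 Z-disc and costamere genes, 9 were higher and 5 lower (median 0.11). Pdlim3, an actinin-binding Z-disc protein (1.38, adjusted p = 4.49e-06), the adhesion protein Zyx (1.03, adjusted p = 3.25e-06), which is drawn to stretched actin, and Vcl, vinculin of the costamere (0.79, adjusted p = 2.69e-05), were higher, while Actn3, the fast fibre actinin, was lower (-0.50, adjusted p = 0.0112).

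Of 28 titin and mechanosignalling genes, 7 were higher in DUX_DOX than in EV_DOX and 8 lower (median -0.08). Those 15 calls were 8 without DUX_DOX library 3 and 9 without EV_DOX library 1. Cyr61, a secreted protein and a known target of the stretch-sensing YAP pathway, was higher by 2.03 on the log2 scale (adjusted p = 0.000133), and Myom3, a protein of the M-band, 1.58 (adjusted p = 4.5e-05). Cmya5, a large protein that binds titin and actinin, fell to 1608, 1413 and 1251 CPM in DUX_DOX libraries, against 2098, 2058 and 2172 in EV_DOX (-0.57, adjusted p = 0.00105). Of 38 actin assembly genes, 13 were higher and 5 lower (median 0.18), among them Lmod2, which nucleates actin filaments in sarcomeres (1.45, adjusted p = 3.29e-07), and Actr3 of the branching complex Arp2/3 (0.73, adjusted p = 3.25e-06), both higher.

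**Figure D5:**
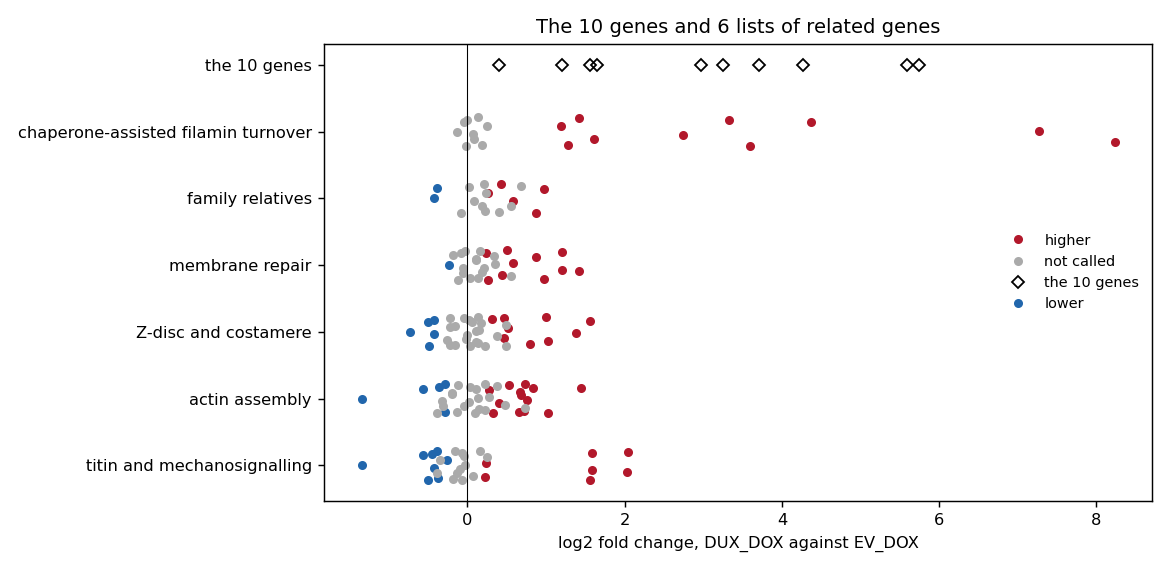
Log2 fold change for DUX_DOX against EV_DOX of the 10 genes (diamonds) and of every measured gene of the 6 lists, coloured by call. The chaperone list runs furthest to the right, with Hspa1a at 7.27 and its copy Hspa1b beyond it, and the titin list holds about as many lower as higher calls (8 and 7).

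Markers of other cells moved beside the 10 genes. Of 17 macrophage markers, 15 were higher in DUX_DOX than in EV_DOX and 0 lower, and their summed level was 321.1 to 458.1 CPM in DUX_DOX, 126.1 to 177.6 in EV_DOX, 189.9 to 210.2 in DUX and 135.7 to 206.6 in EV. Of 9 satellite cell and regenerating fibre markers, 5 were higher and 0 lower, with sums of 90.1 to 101.9 CPM in DUX_DOX, against 57.1 to 80.7 in EV_DOX. The higher ones were Myog (log2 1.11), Vcam1 (0.91), Myh8 (1.42), Ncam1 (0.53) and Myod1 (0.42), with adjusted p from 0.000327 to 0.0251. The 4 that were not called had negative values, namely the embryonic myosin Myh3 (-0.93), Myf5 (-0.53), Pax7 (-0.34) and Megf10 (-0.30). Of 12 fibre markers 3 were lower and 0 higher. Smooth muscle and pericyte markers were higher in 2 of 8, Tagln and Des, and Des is also a gene of muscle fibres. Of 6 neutrophil markers listed only 1 was measured, and it was called higher. Its level was low, with means of 1.45 CPM in DUX_DOX, 0.66 in EV_DOX and 1.11 in DUX. Of 8 endothelial markers 1 was lower, and 1 of 11 fibro-adipogenic markers was higher. None of 8 tenocyte, 7 Schwann, 5 red blood cell and 4 adipocyte markers was called. None of the measured markers was at 0 in all libraries. Tenocyte markers were uneven, with sums of 241.6 to 326.1 CPM in DUX_DOX, 134.4 to 984.5 in EV_DOX, 106.8 to 181.0 in DUX and 183.4 to 1062 in EV. The highest were EV library 3 and EV_DOX library 1, which were also the highest of the 9 libraries without induced Dux for Anxa2 (EV library 3), Nrap (EV library 3) and Dysf (EV_DOX library 1). For the rest of the 10 genes the highest of the 9 was DUX library 2, EV library 1 or EV library 2. The part of these cells in the levels of the 10 genes was not tested.

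The genes outside the group whose profiles over the 12 libraries came nearest to its 3 highest fold changes were then found, by the root mean square difference of log2 CPM relative to EV among 7271 candidates. Nearest to Ankrd1 were Hspb1 (0.74 log2 units), Otud1 (0.83) and Peg10 (0.84). Nearest to Csrp3 were Mustn1 (0.65), which averaged 1324 CPM in DUX_DOX, 71.6 in EV_DOX, 117.5 in DUX and 55.9 in EV, Atf3 (0.67) and Otud1 (0.86). Among the nearest to Xirp1 were Hspb1 (0.34) and Tnfrsf12a (0.40). Among the 10 genes themselves, Xirp1 and Enah were each other's nearest (0.34), as were Xirp2 and Nrap (0.29). These distances include the DUX_DOX libraries, so they depend on the sizes of the fold changes on which the genes were chosen. Over the 9 libraries without DUX_DOX, Pearson's r was 0.577 for Xirp1 and Enah and 0.077 for Xirp2 and Nrap.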

How the data were processed

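RNA was measured in 12 libraries of mouse tibialis anterior muscle, 3 in each of 4 groups, and all were used. The deposited values are raw counts of reads in each gene. Per the submitters' processing notes, the tools were bcl2fastq 2.17.1.14, STAR and featureCounts, with the GRCm38 build. The sources used here give no other version, annotation or strand setting. The table holds 12752 genes with mean counts of at least 10.0. All columns were mapped to their samples by name. Each pair of replicates was compared to find duplicates, and the chi-square per degree of freedom of each pair was 4.96 to 26.3.

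Genes were tested with edgeR 4.0.16 (R 4.3.3), by its two-sided quasi-likelihood test. TMM factors were 0.916 to 1.12, genes passed edgeR's own filter for low counts, and the model had 1 mean per group over the 12 libraries. It left 12751 genes. P-values were adjusted by Benjamini-Hochberg over all of them in each comparison, with a threshold of 0.05. Fold changes have a prior count of 0.125. CPM use the TMM-adjusted totals. RPKM divide by the union of exons in GENCODE M21. Correlations used log2 CPM with a prior count of 2 and exact permutation tests. Steps were tested on simulated data. DESeq2 1.42.0 and limma-voom (limma 3.58.1) were alternatives, beside other factors and filters, only the groups compared, the replicate block, and leaving out each library.

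The 10 genes, the related lists and the markers were chosen with earlier results of these data known. Named from the lists are the 3 genes of each with the smallest p for DUX_DOX against EV_DOX, and for the 3 genes with the largest fold change the 3 nearest profiles with a mean of at least 10 CPM, and 1 gene that the rule picked is not reported here. Bag3, Hspb8, Neb, Ankrd23, Actn3, Tagln, Des and the satellite cell markers were named once their values had been seen. So were the relatives and the filamin turnover genes said not to be called. Replicate numbers were checked for pairing. Promoter sequences are RefSeq's on GRCm38.p6, and no promoter was printed for genes without a match. The Dux gene is not analysed here.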

Additional observations from a re-analysis of the deposited data

Results flagged for a closer look

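The effect of the Dux vector differed between the chows for all 10 genes. The difference is the log2 fold change of DUX_DOX against EV_DOX minus that of DUX against EV, called by the interaction term of the edgeR fit. It was 6.27 for Ankrd1, 4.52 for Csrp3, 4.18 for Xirp1, 3.68 for Enah, 3.16 for Flnc, 2.48 for Ankrd2, 1.82 for Anxa2, 1.57 for Xirp2, 1.39 for Nrap and 0.62 for Dysf. The genes were chosen from the first of these fold changes, so the calls are no independent result. No group held the 4 libraries needed to look for a single stray library.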

How the results depend on the processing

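All 10 genes were called higher for DUX_DOX against EV_DOX, against DUX and in the interaction under every setting that was run, with log2 fold changes against EV_DOX of 0.34 to 0.51 for Dysf, the lowest of them. For DUX_DOX against EV_DOX the count over all genes was 2109 to 3355 with a library left out, lowest without DUX_DOX library 3. For DUX against EV, DESeq2 called 153 genes, leaving out a library gave 0 to 118 (118 without EV library 2, 1 without DUX library 2), and 0 to 1 of the 10 genes were called. For EV_DOX against EV the 5 calls were 1 with upper-quartile factors, 12 with DESeq2, 0 with limma-voom, 0 with only the groups compared and 0 to 10 with a library left out. Interaction calls were 813 to 2148 with a library left out, lowest without EV library 3 and highest without EV_DOX library 1. Small fold changes changed sign with a library left out. For DUX against EV, Xirp1 ran -0.16 to 0.25, Xirp2 -0.09 to 0.05 and Enah -0.05 to 0.11. For EV_DOX against EV, Csrp3 ran -0.37 to 0.60 (0.07 with limma-voom), Ankrd2 -0.29 to 0.36, Ankrd1 -0.79 to 0.11 and Anxa2 -0.33 to 0.00. The cause was not tested.

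The labels do not say whether a replicate number marks a shared mouse, and with 3 libraries per group the correlations could not settle it. Correlations of same-numbered libraries were -0.188, 0.09 and 0.079 for DUX_DOX with EV_DOX, and -0.105, 0.218 and 0.165 for DUX with EV. Those of differently numbered libraries ran from -0.361 to 0.323 for DUX_DOX with EV_DOX and from -0.31 to 0.242 for DUX with EV. With the replicate block 3040 genes, against 3224, were called for DUX_DOX against EV_DOX, 10 of the 10 genes among them, and 0 for EV_DOX against EV. The block gave each replicate number a term shared by all groups, so it also tied libraries on different chows. It was therefore no fit by mouse and no check of opposite legs. Each group has 3 libraries, and the spread of Csrp3 and Ankrd1 between libraries without induced Dux (coefficients of variation of 65.8% and 42.5%) limits what small differences can be seen in them.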
